A study of Mus musculus with 72 samples.

Results

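Transcript levels in whole blood were compared between mice that had drunk lead at the high dose and mice that had drunk it at the low dose, at the end of a period on plain water. The comparison used every high-dose and low-dose array of that collection, 13 and 15 arrays, 28 of the 72 arrays of the series, and every gene measured by a probe set with exactly 1 gene symbol. Of 18193 such genes, 12588 were bright enough to be tested. The mice were female Balb/c, 9 weeks old when dosing began, and drank lead acetate trihydrate at 50 µg/mL (high dose), 5 µg/mL (low dose) or 0 µg/mL (controls) for 2 weeks. All then drank lead-free water for 2 weeks. Blood was taken by submandibular bleed after the exposure (15 high-dose, 15 low-dose and 7 control arrays) and after the recovery (13 high-dose, 15 low-dose and 7 control arrays). The lead-exposed mice of the recovery collection had all been bled before, and the labels do not say whether the 7 control mice had been. Why 13 rather than 15 high-dose samples followed the recovery is not given in the sources used here, and neither are blood lead levels. Globin transcripts were removed from the RNA before labelling, so globin signals are what that step left.

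Lead in blood is carried almost wholly by red cells. There it inhibits delta-aminolevulinic acid dehydratase (Alad) and ferrochelatase (Fech), enzymes of heme synthesis, and the erythrocyte pyrimidine nucleotidase (Nt5c3), which clears nucleotides from maturing red cells. Mature red cells of mice hold no nucleus, so the red-cell RNA in a blood sample comes mainly from reticulocytes, young cells that still carry transcripts of the erythroblast. Whole blood also holds RNA of neutrophils, lymphocytes, monocytes and platelets, and in such a mixture fewer cells of a type and less RNA per cell cannot be told apart.

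The deposited values are log2 signals, here called levels, and a difference is high dose minus low dose on that log2 scale. Array medians lay between 4.05 and 4.22 over the 72 arrays. The arrays of the 2 doses after recovery resembled one another: pairwise correlations were at least 0.974 across genes, with a median of 0.992 within a dose and 0.991 between doses. Of 8 array measures, 0 passed adjustment (permutation test, two-sided). The hybridisation spike-in mean was 10.02 at the high dose and 9.75 at the low dose (adjusted p = 0.210). Array quality was gauged by how widely a probe set's signal strays from its median over arrays (the interquartile range of relative log expression), which was 0.271 at the high dose and 0.324 at the low dose (0.269). On low-dose replicates 4 and 15 that range was wide, 0.540 and 0.473, as on 2 high-dose arrays of the exposure collection. Some of the results below are also given without these 4 arrays. Defining markers of B, T and NK cells, monocytes, neutrophils, platelets and reticulocytes averaged between 6.85 and 13.8 at the high dose and between 6.70 and 13.8 at the low dose. Markers of eosinophils and basophils (3.65 to 5.77 at the high dose, 3.73 to 5.86 at the low dose) and of facial skin and muscle (4.02 to 4.85 at the high dose, at most 4.78 at the low dose) lay much nearer the array median.

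No gene passed the test between the doses after recovery. With limma, fitted to all 72 arrays and adjusted by Benjamini-Hochberg over 12588 genes, 0 genes (0%) had an adjusted p under 0.05, and the smallest adjusted p was 0.125. At an unadjusted p under 0.05 there were 1765 genes, 802 (6.37%) with a positive and 963 (7.65%) with a negative difference, where an even spread of p-values would put 629.4 genes. That split moved with the scaling, to 1042 higher and 759 lower after each array was centred on its median, 925 and 921 after quantile normalization, and 1029 and 858 after cyclic loess. Without the 4 wide arrays 1235 genes had an unadjusted p under 0.05. With the hybridisation mean as a covariate there were 920, with cell marker means 1054 and with the 18S ribosomal RNA signal 1734. The count rose to 2053 (760 higher, 1293 lower) with the 3-prime minus 5-prime signals of beta-actin and Gapdh as covariates. In each of these fits 0 genes passed adjustment. The part of these measures in the dose difference was not tested beyond those fits.

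**Figure D1:**
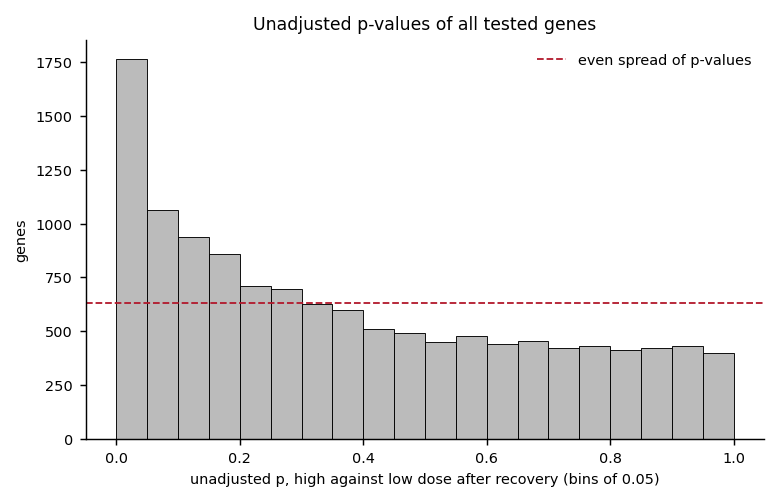
Number of tested genes (vertical axis) in each bin of unadjusted p from the high against low dose test after recovery (horizontal axis, bins of 0.05). The lowest bin holds 1765 genes, and the dashed line marks the 629.4 genes per bin of an even spread.

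Differences were small throughout. Their median absolute size was 0.0702 on the log2 scale, against 0.1002 for the same doses after exposure, and their median was -0.02, with 5160 genes (41.0%) above 0 and 7428 (59.0%) below. That lean moved with the scaling, to 6635 genes above 0 after median centring, 6151 after cyclic loess and 5989 after quantile normalization. The median over genes of the SD between arrays was 0.177 at the high dose, 0.197 at the low dose and 0.190 in controls. For 12439 genes (98.8%) the 95% interval of the difference lay within 1.5-fold in either direction, so a larger dose difference was outside the interval for these genes. The median half-width of the interval was 0.142. Only 2 genes had a difference past 1.5-fold, Tfrc and Cdca5 (0.67 and 0.59, both higher at the high dose), and neither passed the test. No gene (0%) had high-dose and low-dose arrays that did not overlap.

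The weight given to the arrays changed the count. With limma array weights, which lower the influence of variable arrays, 95 genes passed (41 with higher levels in the high-dose arrays, 54 with lower). Of the 10 genes named next 8 were among them. At those weights 2686 genes had an unadjusted p under 0.05. Weights had a median of 1.21 on the high-dose arrays (0.465 to 1.91) and of 0.827 on the low-dose arrays (0.381 to 2.27). In a fit to the 28 arrays alone 1 gene passed, Odf3 (adjusted p = 0.0390). Without high-dose replicate 12, 5 genes passed, namely Odf3, Scrn2, Arnt, Tat and Abcf1 (all 0.0468). Without low-dose replicate 11, Scrn2 alone passed (0.0421). All other fits that left out 1 array gave 0 genes.

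Among the genes higher at the high dose, those of smallest p were Odf3, Scrn2, Ncapg, Disp3 and Uhrf1, all with an adjusted p of 0.125 (limma) and so not past the threshold. Odf3, which encodes a protein of the sperm tail, had a lowest, median and highest level of 3.59, 3.94 and 4.22 on high-dose arrays, 3.19, 3.57 and 3.80 on low-dose arrays and 3.44, 3.63 and 3.90 on control arrays. Of the 13 high-dose arrays 9 lay above every low-dose array and the rest overlapped them, for a difference of 0.37 ± 0.08 (SE; 95% interval 0.21 to 0.53). Most of these signals were below the array medians, where probe sets are dim. Ncapg, a subunit of the condensin complex that compacts mitotic chromosomes, was as dim, at 3.63, 4.03 and 4.21 (high dose), 3.24, 3.70 and 4.19 (low dose) and 3.60, 3.76 and 3.98 (controls). The groups overlapped over most of their range, with 4 high-dose arrays beyond the low-dose range (difference 0.36 ± 0.08). Uhrf1, which recruits the maintenance DNA methyltransferase to replicating DNA, had levels of 4.34, 4.67 and 5.33 at the high dose, 4.20, 4.40 and 4.64 at the low dose and 4.25, 4.61 and 4.82 in controls. Here 9 high-dose arrays lay above every low-dose array, and the control median was close to that of the high dose (difference 0.32 ± 0.08).

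Scrn2 had levels of 6.15, 6.48 and 6.92 on high-dose arrays, 5.81, 6.10 and 6.60 on low-dose arrays and 5.92, 6.13 and 6.25 on control arrays. All 13 high-dose arrays lay above the low-dose median, yet 1 low-dose array, at 6.60, lay above most high-dose arrays. Some other low-dose arrays overlapped the lowest high-dose arrays (difference 0.36 ± 0.08). Disp3, of the Dispatched family of membrane proteins, had levels of 5.65, 5.95 and 6.22 (high dose), 5.40, 5.69 and 5.90 (low dose) and 5.42, 5.70 and 5.90 (controls). Low-dose and control arrays covered nearly the same range, and 8 high-dose arrays lay above every low-dose array (0.27 ± 0.06).

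Among the genes lower at the high dose, those of smallest p were Arnt, Bend3, Clec10a, Ptch1 and Nnt. Arnt, the shared partner of the aryl hydrocarbon receptor and of hypoxia-inducible factors, had a lowest, median and highest level of 5.61, 5.80 and 5.94 at the high dose, 5.84, 6.01 and 6.27 at the low dose and 5.86, 5.996 and 6.27 in controls. Of the 13 high-dose arrays 10 lay below every low-dose array, while low-dose and control arrays shared 1 range (difference -0.22 ± 0.05, adjusted p = 0.125). Of the 3 other Arnt probe sets, 1 differed in the opposite direction. Bend3, a chromatin-bound repressor, had levels of 4.92, 5.12 and 5.36 (high dose), 5.12, 5.35 and 5.47 (low dose) and 5.06, 5.20 and 5.38 (controls), so the control median lay between those of the doses (-0.19 ± 0.05, 0.125). Clec10a, a lectin of macrophages and dendritic cells, had levels of 4.06, 4.30 and 4.46 (high dose), 4.03, 4.66 and 5.13 (low dose) and 4.23, 4.39 and 4.56 (controls). Its low-dose arrays spread widely and included the lowest of all, and the high-dose arrays kept to the dim end of that range (-0.39 ± 0.10, 0.125).

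Ptch1, the receptor of Hedgehog ligands, had levels of 5.17, 5.48 and 5.87 on high-dose arrays, 5.28, 5.94 and 6.45 on low-dose arrays and 4.98, 5.73 and 5.91 on control arrays. High-dose arrays lay in the lower part of the low-dose range (-0.37 ± 0.09, adjusted p = 0.132, limma), and the gene's 1 other probe set differed the opposite way. Nnt, the mitochondrial transhydrogenase that makes NADPH, had levels of 6.21, 6.88 and 7.21 (high dose), 6.80, 7.19 and 7.54 (low dose) and 6.78, 7.22 and 7.37 (controls). Of the high-dose arrays 4 lay below every low-dose array, and low-dose and control arrays coincided (-0.38 ± 0.10, 0.144). Its 1 other probe set, about as bright, differed by -0.06 ± 0.07. Over all named genes 55 of 65 other probe sets, of 40 genes, had the sign of the one reported, and 52 had a smaller absolute difference.

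**Figure D2:**
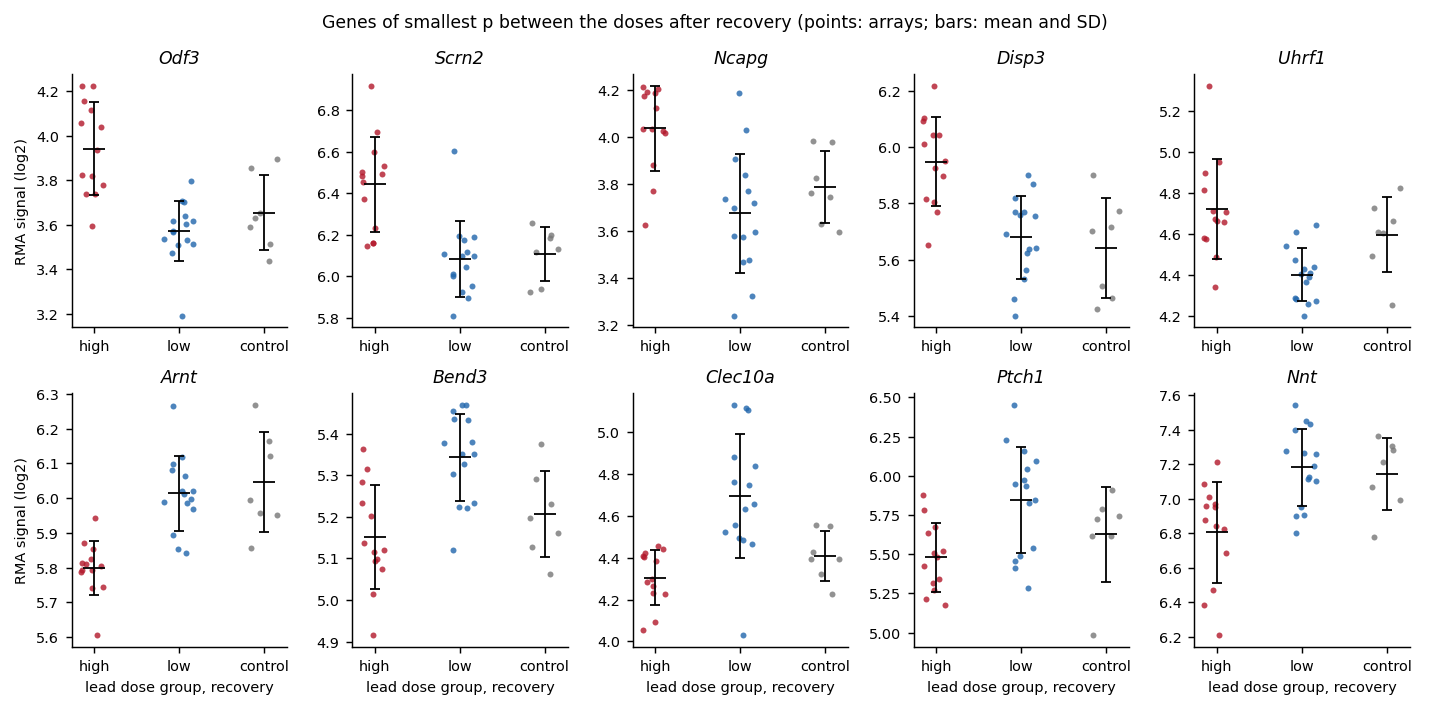
Log2 RMA signal (vertical axis) on each array after recovery for the 10 genes of smallest p, by dose group: 13 high-dose, 15 low-dose and 7 control arrays (points), with mean and SD (bars). The upper row holds genes higher and the lower row genes lower at the high dose, and in every panel the points of both doses overlap.

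Genes were also grouped into 29 lists by cell type or function. In each list 0 members passed the test, so a list is described by how many members lay higher or lower, how many had an unadjusted p under 0.05, and its median difference, beside a median of -0.02 and 59.0% of genes lower for all tested genes. In 9 of the 29 lists the median turned sign in at least 1 of the other scalings, covariate fits, weights or array omissions: T cells, NK cells, lead targets, antioxidant genes, heat shock, interferon, circadian clock, p53 and oxidative phosphorylation. Members of a list are not independent of each other, and a list's count gives no test of the list.

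Red-cell genes lay higher at the high dose. Of 33 reticulocyte and erythroid genes 32 were higher, all except the glucose transporter Slc2a1, and 21 of them had an unadjusted p under 0.05, with a median difference of 0.32 (0.21 after exposure). The list's mean level per array was 7.79, 8.30 and 8.93 (lowest, median and highest) at the high dose, 7.29, 8.12 and 8.56 at the low dose and 7.76, 7.98 and 8.27 in controls. The doses overlapped, with 10 of 13 high-dose arrays above the low-dose median. The size of the median rested in part on single arrays: it was 0.22 without low-dose replicate 4, 0.20 without the 4 wide arrays and 0.19 with array weights, and 32 members were still higher in each of the last 2 settings.

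Of the 33 genes, Aqp1, the water channel of the red-cell membrane, had the smallest p. Its levels were 9.02, 9.16 and 9.47 at the high dose, 8.13, 8.85 and 9.22 at the low dose and 8.33, 8.72 and 9.00 in controls. Every high-dose array lay above the low-dose median and above every control array, and 6 lay above every low-dose array (difference 0.38 ± 0.10, 95% interval 0.18 to 0.58, adjusted p = 0.150, limma). Ermap, an erythroid membrane protein, had levels of 6.72, 7.77 and 8.45 (high dose), 5.79, 7.33 and 8.07 (low dose) and 6.60, 7.40 and 7.51 (controls). The low-dose arrays spread widest and reached lowest (0.55 ± 0.17, 0.202). Rhd, the Rh blood group antigen, differed by 0.48 ± 0.15 and the claudin Cldn13 by 0.43 ± 0.13 (both 0.202).

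Globin signals also lay higher. All 5 measured globin genes were higher at the high dose, 1 of them with an unadjusted p under 0.05, with a median difference of 0.19 (0.35 after exposure). The embryonic beta-like globin Hbb-y had levels of 5.55, 6.07 and 6.66 at the high dose, 5.01, 5.67 and 6.29 at the low dose and 5.16, 5.94 and 6.29 in controls. Of 13 high-dose arrays 5 lay above every low-dose array, and the control median was nearer to that of the high dose (0.44 ± 0.12, adjusted p = 0.171, limma). The mean of the 5 globin genes was 5.43 ± 0.27 at the high dose (SD, n = 13) and 5.19 ± 0.26 at the low dose (SD, n = 15), a difference that did not pass adjustment over the 8 array measures (permutation test, two-sided, p = 0.0224, adjusted p = 0.179). Because globin RNA was depleted, these values reflect the depletion as well as the blood, and the part of the depletion was not tested. The median of the 5 differences lay between 0.14 and 0.25 when single arrays were left out. Without the wide arrays it was 0.13, and the p of the globin mean was 0.0718 (adjusted p = 0.204, permutation test).

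The enzymes that lead inhibits were each measured. Alad had levels of 7.60, 8.19 and 8.64 at the high dose, 7.46, 7.92 and 8.13 at the low dose and 7.57, 7.92 and 8.32 in controls. Low-dose and control medians coincided, and 10 of the 13 high-dose arrays lay above every low-dose array (0.34 ± 0.11, 95% interval 0.12 to 0.56, adjusted p = 0.207, limma). Nt5c3 had levels of 8.60, 9.48 and 10.62 (high dose), 8.13, 9.12 and 10.18 (low dose) and 8.67, 9.24 and 9.74 (controls), with wide overlap (0.36 ± 0.16, 0.329). The Nt5c3 difference was -0.03 with cell marker means as covariates. Fech (13.49, 13.53 and 13.59 at the high dose, 13.41, 13.52 and 13.59 at the low dose) and Alas2, the rate-limiting enzyme of erythroid heme synthesis (13.75, 13.81 and 13.88, and 13.69, 13.81 and 13.88), both lay near 14.1, the highest deposited value. Both differed by 0.01 ± 0.03 with intervals of -0.04 to 0.07 and -0.05 to 0.07, and signals this close to the top of the scale may be compressed. Of the other Fech probe sets, one with a mean level of 12.9 differed by 0.09 ± 0.04 and one of 11.05 by 0.25 ± 0.13, neither past adjustment (adjusted p = 0.362 and 0.395, limma).

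In the whole heme list of 18 genes 12 were higher and 6 lower, 4 and 0 of them with an unadjusted p under 0.05 (median 0.03). The smallest p-value belonged to the mitochondrial transporter Abcb10 (0.31 ± 0.09, adjusted p = 0.196, limma), followed by Alad, the porphyrin transporter Abcb6 (0.23 ± 0.08, 0.244) and the biliverdin reductase Blvrb (0.41 ± 0.17, 0.294). All 13 high-dose arrays lay above the low-dose median for Abcb6. Of 19 lead target proteins 9 were higher and 10 lower (median -0.0019), with an unadjusted p under 0.05 for the higher Alad and Nt5c3 and for 3 lower genes. These were the protein kinase C gene Prkcb (-0.22), the calcineurin subunit Ppp3ca (-0.16) and the calcium-binding S100a4 (-0.21).

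For iron, the transferrin receptor Tfrc had the largest positive difference of all genes. Its levels were 8.10, 9.69 and 10.52 on high-dose arrays, 8.05, 8.89 and 9.87 on low-dose arrays and 7.95, 8.62 and 9.50 on control arrays. All 3 groups started at about the same level, and the high-dose arrays reached highest, 4 of them above every low-dose array (0.67 ± 0.24, 1.59-fold, 95% interval 0.19 to 1.15 on the log2 scale, adjusted p = 0.252, limma). The rest of the iron list did not go with it: of 15 genes 6 were higher and 9 lower (median -0.05). Aco1, an iron-regulated RNA-binding protein that controls Tfrc mRNA, differed by -0.23 ± 0.09 (0.294). Of the metal-binding metallothioneins, Mt1 had levels of 4.78, 5.06 and 5.31 (high dose), 4.64, 4.86 and 5.19 (low dose) and 4.52, 4.79 and 5.11 (controls). High-dose arrays lay in the upper part of that range (0.19 ± 0.07, 0.252), and the other Mt1 probe set, dimmer, differed by -0.18. Mt2 differed by -0.10 ± 0.10 (0.626), and the list of 12 metallothionein and metal transport genes held 4 higher and 8 lower.

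Cell cycle genes, which in blood cells are transcribed mainly by dividing or recently divided precursors, also lay higher at the high dose. Of 30, 25 were higher, 13 of those with an unadjusted p under 0.05, while the 5 lower (Mcm5, Kif23, Pcna, Mcm2 and Cdc20) differed by -0.08 to -0.0018 (median of the list 0.12). Birc5 (survivin), a mitotic regulator, had levels of 5.00, 5.81 and 6.40 at the high dose, 4.65, 5.37 and 5.79 at the low dose and 5.08, 5.31 and 5.98 in controls. Of 13 high-dose arrays 9 exceeded every low-dose array (0.51 ± 0.14, adjusted p = 0.174, limma). The proliferation marker Mki67 differed by 0.46 ± 0.15 (0.208), the kinetochore gene Cenpf by 0.50 ± 0.17 (0.223) and the transcription factor gene E2f1 by 0.20 ± 0.07 (0.244). Ncapg and Uhrf1, described above, are cell division genes as well. The per-array mean of the list was 6.43, 6.64 and 6.91 (high dose), 6.10, 6.50 and 6.68 (low dose) and 6.35, 6.53 and 6.64 (controls), so the doses overlapped and 11 of 13 high-dose arrays lay above the low-dose median.

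Platelet and megakaryocyte genes were higher at the high dose in 31 of 32 cases, 9 with an unadjusted p under 0.05, with a median difference of 0.11 (0.29 after exposure). The exception, Mmrn1, differed by -0.01. Gp6, the collagen receptor of platelets, had levels of 6.62, 7.21 and 7.40 at the high dose, 6.52, 6.96 and 7.39 at the low dose and 6.37, 6.68 and 6.96 in controls. Its medians stepped up from controls through the low to the high dose, while the doses spanned almost the same range (0.24 ± 0.08, adjusted p = 0.229, limma). The ATP-gated channel P2rx1 differed by 0.24 ± 0.08 (0.245), the receptor gene Treml1 by 0.22 ± 0.09 (0.285) and the thrombin receptor family member F2rl2 by 0.21 ± 0.09 (0.301). The list mean was 8.92, 9.48 and 9.67 per array at the high dose, 9.02, 9.29 and 9.83 at the low dose and 8.93, 9.16 and 9.38 in controls. Both the highest and the lowest array of the doses went against the general order, and 11 of 13 high-dose arrays lay above the low-dose median. On the exposure arrays the list mean had medians of 9.48 (high dose), 9.18 (low dose) and 9.43 (controls), so there the low dose stood apart.

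**Figure D3:**
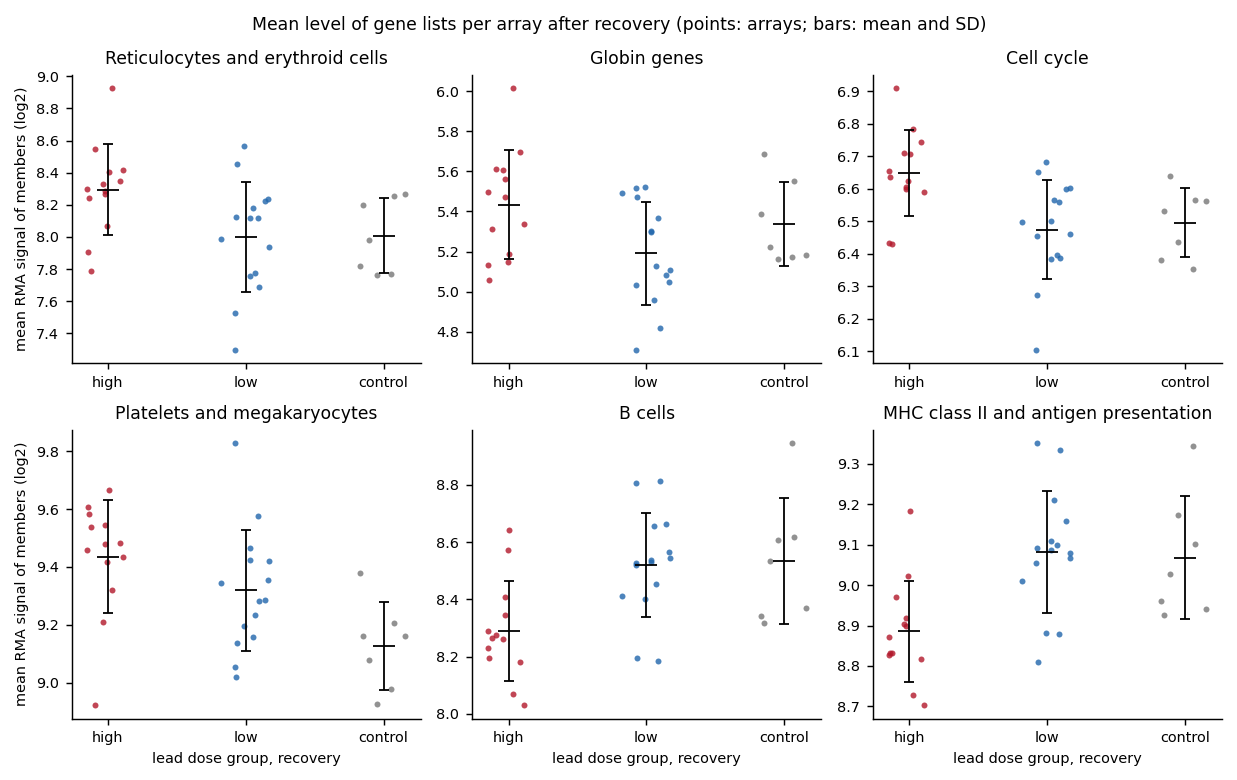
Mean log2 RMA signal of a list's members (vertical axis) on each recovery array, for 6 lists, by dose group (13 high-dose, 15 low-dose and 7 control arrays as points, with mean and SD). The erythroid list has medians of 8.30, 8.12 and 7.98 in high-dose, low-dose and control arrays, the B cell list 8.26, 8.53 and 8.53, and the points of both doses overlap in all panels.

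B cell genes lay lower at the high dose. Of 25, 24 were lower, 15 of them with an unadjusted p under 0.05, with a median difference of -0.24, against -0.60 after exposure. The exception was the kinase gene Btk (0.10). Cd22, an inhibitory co-receptor, had levels of 9.45, 9.63 and 10.12 at the high dose, 9.61, 10.01 and 10.38 at the low dose and 9.84, 9.88 and 10.44 in controls. Of 13 high-dose arrays 12 lay below the low-dose median and 6 below every low-dose array (-0.33 ± 0.11, 95% interval -0.56 to -0.10, adjusted p = 0.245, limma). Cd79b, a signalling chain of the B cell receptor, had levels of 9.79, 10.08 and 10.54 (high dose), 9.97, 10.51 and 11.01 (low dose) and 10.09, 10.39 and 10.92 (controls), again with 12 of 13 high-dose arrays below the low-dose median (-0.36 ± 0.14, 0.267). The adaptor genes Blnk and Bank1 each differed by -0.29 ± 0.12 (both 0.286). On the exposure arrays the mean of the B cell list had medians of 7.49 (high dose), 8.05 (low dose) and 7.72 (controls).

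The class II antigen presentation genes, which B cells share with monocytes and dendritic cells, followed them. Of 16, 15 were lower, 12 with an unadjusted p under 0.05, with a median of -0.25 (-0.63 after exposure). H2-Ab1, a class II chain, had levels of 10.06, 10.22 and 10.67 at the high dose, 10.19, 10.56 and 11.12 at the low dose and 10.37, 10.54 and 10.80 in controls. Low-dose and control medians coincided and 4 high-dose arrays lay below every low-dose array (-0.31 ± 0.11, adjusted p = 0.249, limma). The invariant chain Cd74 differed by -0.30 ± 0.11 (0.252) and cathepsin S (Ctss), which degrades it, by -0.20 ± 0.07 (0.254). Rfxank, a transcription factor gene of the class II promoters, was the 1 gene higher (0.18 ± 0.07, 0.267). The list mean on the exposure arrays had medians of 8.15 (high dose), 8.72 (low dose) and 8.31 (controls), so controls were nearer the high dose.

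Of the other white cells, monocyte genes were lower in 20 of 24 cases, 6 with an unadjusted p under 0.05 (median -0.12). The extracellular matrix gene Fn1 differed by -0.36 ± 0.11 (adjusted p = 0.202, limma) and Csf1r, the growth factor receptor of monocytes, by -0.22 ± 0.08 (0.262), with all 13 high-dose arrays below the low-dose median for Csf1r. Neutrophil genes were lower in 15 of 24 cases (median -0.04) and T cell genes in 14 of 24 (median -0.02), with 1 and 0 members of unadjusted p under 0.05. These shares of lower genes are close to the 59.0% of all genes. NK genes were higher in 12 of 19 cases (median 0.02), and 10 of 12 eosinophil and basophil genes were lower (-0.11), at dim levels. The direction in T cell and NK lists is thus not settled.

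In signalling lists the differences were small. Of 22 inflammation and NF-kappaB target genes 19 were lower, 5 with an unadjusted p under 0.05 (median -0.11), among them the feedback inhibitors Nfkbie (-0.28 ± 0.10, adjusted p = 0.254, limma) and Nfkbia (-0.19 ± 0.08, 0.329) and the survival gene Birc3 (-0.19 ± 0.08, 0.294). Of 28 immediate early genes 21 were lower and 7 higher (median -0.10), 6 and 1 of them with an unadjusted p under 0.05. Among the lower were the nuclear receptor gene Nr4a1 (-0.19 ± 0.06, 0.240), Klf4 (-0.27 ± 0.10, 0.252) and the antiproliferative gene Btg1 (-0.20 ± 0.07, 0.255). Nr4a2 went the other way, higher by 0.14 to 0.20 when single arrays were left out. With array weights it passed the test (0.26, adjusted p = 0.0471, limma). Nr4a1 and Klf4 also stand in the monocyte list. Fos (0.01 ± 0.15) and Dusp1 (-0.07 ± 0.13) had wide intervals, and the sign of the Fos difference turned in several fits. Of 25 genes of the endoplasmic reticulum unfolded protein response 16 were lower, 8 with an unadjusted p under 0.05, including the chaperone Hspa5 (-0.19 ± 0.08, 0.306, with other probe sets at -0.03 and -0.07), its sensor Ern1 (-0.16 ± 0.07, 0.311), Xbp1 (-0.15 ± 0.07, 0.307) and Trib3 (-0.19 ± 0.06, 0.207). Of 36 interferon response genes 21 were higher and 15 lower (median 0.03, -0.02 without high-dose replicate 2), with Igtp at 0.17 ± 0.06 (0.220), Ifit1 at 0.30 ± 0.14 (0.330) and Ifi204 at -0.26 ± 0.12 (0.329).

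Among genes of general cell function, 22 of 24 cytosolic ribosomal protein genes and 32 of 35 proteasome genes were lower at the high dose, with medians of -0.07 and -0.05, and 1 and 0 of them had an unadjusted p under 0.05. The proteasome count rested on scaling and on the wide arrays: 15 of 35 were higher without those arrays (median -0.0051) and 14 after cyclic loess (median -0.01), against 3 as reported. Of 42 oxidative phosphorylation genes 29 were lower and 13 higher (median -0.04), but 21 were higher without the wide arrays (median -0.0039) and 22 after cyclic loess (median 0.0027). Antioxidant and Nrf2 target (11 of 21, -0.03), glucocorticoid response (13 of 19, -0.05), circadian clock (12 of 18, -0.02) and p53 (12 of 20, -0.02) lists lay near the median of all genes. So did those of facial skin, muscle and salivary gland (5 of 8 higher, 0.04). Plasma cell genes went both ways (5 of 8 higher, median 0.07): the syndecan Sdc1 (0.18) and Derl3 (0.12) were higher and Mzb1 (-0.26), Irf4 (-0.20) and Xbp1 (-0.15) lower at an unadjusted p under 0.05. The sodium, potassium and chloride cotransporter gene Slc12a2 differed by 0.02 ± 0.09.

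**Figure D4:**
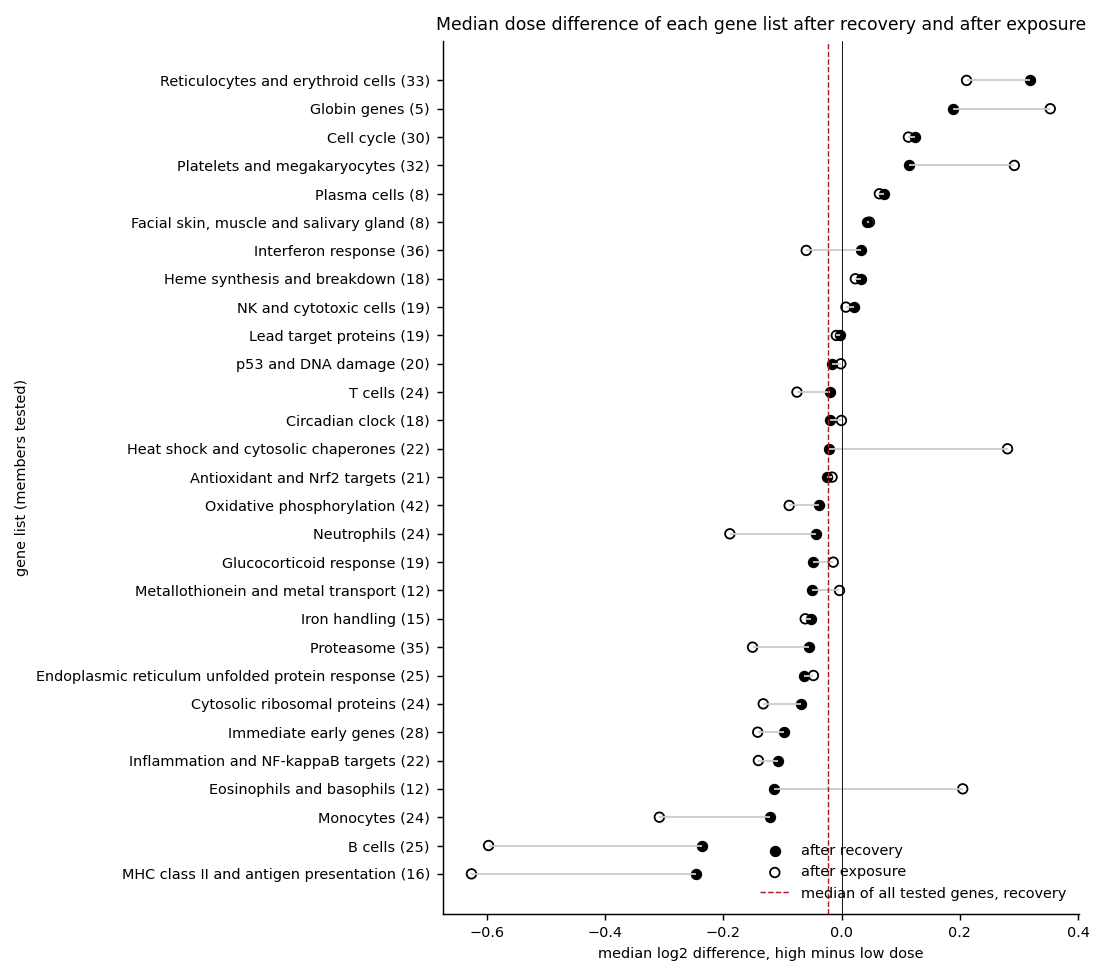
Median log2 difference, high minus low dose, over the tested members of each of 29 gene lists (member number in brackets): filled circles after recovery, open circles after exposure, dashed line the median of all tested genes after recovery. The B cell list lies at -0.24 after recovery and -0.60 after exposure, the erythroid list at 0.32 and 0.21, and the heat shock list at -0.02 and 0.28. Controls do not enter these differences, so a circle does not show which dose departed from controls.

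The dose difference after recovery largely kept the direction it had after exposure. After exposure 2349 genes (18.7%) passed the same test between the doses, 760 higher and 1589 lower. After recovery 693 of the 760 and 1549 of the 1589 lay in the same direction, 2242 in all or 95.4%, against 75.3% of the 10239 genes not called after exposure. The medians of the 2 sets were 0.11 and -0.11 after recovery, against 0.26 and -0.24 after exposure. These genes were picked by their exposure difference, which by itself enlarges the exposure medians, so the fall in these sets overstates the change. Over all tested genes, without such picking, the median absolute difference was 0.0702 after recovery and 0.1002 after exposure. Of the 2349 genes, 223 and 479 had an unadjusted p under 0.05 in the same direction after recovery and 0 passed adjustment. The exposed mice gave blood at both collections, so the 2 sets of arrays are not separate mice, and genes are not independent replicates. With the cell marker means as covariates the counts in the same direction were 475 and 1163. Between 2172 and 2245 genes kept their direction under the other settings. The stricter filter gave 2173 of the same 2349 genes, although it tested only 11740 of the 12588 genes. Called genes that it left untested would count there as not kept.

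For 8 genes (0.0636%) the dose difference itself was different between the collections, in the test of the recovery difference minus the exposure difference (limma, adjusted over 12588 genes). That test treated every array as a separate mouse, although the exposed mice gave blood at both collections. Its SEs, intervals and p-values leave out that pairing. All 8 genes were lower after recovery and 0 genes (0%) were higher. An unadjusted p under 0.05 was found for 554 genes, fewer than the 629.4 of an even spread of p-values. Of the 8 genes, 7 are heat shock or chaperone genes, of 22 tested in the heat shock list, and the other is Slc5a3, an inositol transporter gene. Heat shock genes encode chaperones that refold damaged proteins, and their transcription is driven by heat shock factor 1, which binds inverted repeats of the letters GAA. Promoters of these genes follow, because the members moved together, with matches to GAANNTTCNNGAA on either strand in capitals, where N is any base. Windows run from 250 bases before to 50 after the annotated start, 5′ to 3′ on the gene's strand, from RefSeq (GRCm38.p6). The windows are chr9:18292017-18292316 (plus strand) for Chordc1, chr1:55087883-55088182 (minus strand) for Hspd1, chr5:149636266-149636565 (minus strand) for Hsph1 and chr17:34959189-34959488 (minus strand) for Hspa1b, the gene of largest difference.
Chordc1: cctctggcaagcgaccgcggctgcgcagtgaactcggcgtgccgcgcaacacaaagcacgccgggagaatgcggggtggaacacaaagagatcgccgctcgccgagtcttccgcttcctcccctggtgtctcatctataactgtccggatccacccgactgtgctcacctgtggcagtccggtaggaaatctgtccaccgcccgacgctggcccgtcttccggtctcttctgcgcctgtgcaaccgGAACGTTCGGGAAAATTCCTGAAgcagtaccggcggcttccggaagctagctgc
Hspd1: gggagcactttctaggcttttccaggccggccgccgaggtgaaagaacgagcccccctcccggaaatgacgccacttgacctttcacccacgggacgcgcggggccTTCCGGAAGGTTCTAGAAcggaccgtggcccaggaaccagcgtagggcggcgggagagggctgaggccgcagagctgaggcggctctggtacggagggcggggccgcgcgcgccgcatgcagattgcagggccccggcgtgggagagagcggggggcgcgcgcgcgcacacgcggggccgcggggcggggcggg
Hsph1: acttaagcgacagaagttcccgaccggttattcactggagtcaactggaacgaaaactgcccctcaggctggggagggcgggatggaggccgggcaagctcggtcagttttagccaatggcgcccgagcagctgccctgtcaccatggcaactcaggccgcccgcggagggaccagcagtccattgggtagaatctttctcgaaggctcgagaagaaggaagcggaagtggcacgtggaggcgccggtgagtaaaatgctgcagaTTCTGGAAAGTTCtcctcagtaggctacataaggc
Hspa1b: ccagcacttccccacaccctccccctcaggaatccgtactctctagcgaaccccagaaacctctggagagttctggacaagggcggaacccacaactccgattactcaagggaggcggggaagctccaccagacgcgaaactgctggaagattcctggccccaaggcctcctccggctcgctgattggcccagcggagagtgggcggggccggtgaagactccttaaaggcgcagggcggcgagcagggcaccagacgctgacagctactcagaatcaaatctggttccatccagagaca
Of the 8 genes 7 were matched to a promoter, all but Hsp90aa1, and 3 of the 7 held the motif in at least 1 window: Chordc1 with 3 overlapping matches, Hspd1 with 2 overlapping matches and Hsph1 with 1. Counted by window, as some genes have several starts, 4 of their 11 windows held it, and a further window of Hspd1 had no match. The Hsph1 windows overlap and hold the same match, so that site enters the window count more than once. The motif was held by 198 of all 32851 promoter windows given (0.603%), a share of windows and not of genes. A match is a run of letters, not a measured binding site, and Hspa1b, Dnaja1, Stip1 and Slc5a3 had none in their windows.

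Hspa1b, an inducible member of the Hsp70 chaperone family, had a lowest, median and highest level after recovery of 3.04, 3.30 and 3.67 at the high dose, 2.74, 3.23 and 3.55 at the low dose and 2.87, 3.21 and 3.30 in controls. After exposure they were 5.04, 5.93 and 7.60 at the high dose, 3.48, 4.13 and 5.15 at the low dose and 3.71, 4.17 and 4.62 in controls. The 3 groups lay together at a dim level after recovery, while after exposure 13 of 15 high-dose arrays exceeded every low-dose array. The dose difference was 0.11 ± 0.16 after recovery and 1.84 after exposure, a change of -1.73 ± 0.23 (95% interval -2.18 to -1.28, adjusted p = 7.13e-07). All recovery medians and the low-dose exposure median of Hspa1b lay below the 4.14 of the median deposited value, where log2 differences may be compressed, so the size of the change is less certain than its interval. Its near-identical neighbour Hspa1a may share the probe signal.

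Hsph1, a co-chaperone of the same family, had levels after recovery of 7.46, 7.86 and 8.22 at the high dose, 7.29, 7.69 and 8.14 at the low dose and 7.39, 7.62 and 8.14 in controls. After exposure it had 8.12, 8.66 and 9.57 at the high dose, 7.44, 7.76 and 8.27 at the low dose and 8.04, 8.33 and 8.48 in controls. Again the groups overlapped after recovery, and after exposure 14 of 15 high-dose arrays lay above every low-dose array. The change of the dose difference was -0.89 ± 0.14 (adjusted p = 5.28e-05, limma). Dnaja1, which delivers client proteins to the same chaperone class, changed by -0.69 ± 0.12 (0.000734), with differences of -0.03 after recovery and 0.66 after exposure. Stip1, the adaptor that links that class to Hsp90, changed by -0.64 ± 0.11 (0.000734), and Hsp90aa1 itself by -0.46 ± 0.09 (0.00277). The mean of Stip1 after exposure was 6.72 at the high dose, 6.16 at the low dose and 6.66 in controls, so there the low dose stood apart. In 7 of the 8 genes, all but Hspa1b, the low-dose mean after exposure lay below the control mean. The 3 other Hsp90aa1 probe sets differed by 0.04 to 0.10 between the doses after recovery, opposite in sign to the brightest one (-0.08).

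Chordc1, an Hsp90 partner, changed by -0.51 ± 0.10 (adjusted p = 0.00588, limma), with dose differences of -0.01 after recovery and 0.50 after exposure. Hspd1, the mitochondrial chaperonin, changed by -0.44 ± 0.10 (0.0286), with differences of -0.03 and 0.40. The Hspd1 call was lost in 7 of 42 alternative fits, with an adjusted p of up to 0.0737, and the other 7 genes were called in every fit in which they were tested. Slc5a3 had levels after recovery of 3.67, 4.11 and 4.35 at the high dose, 3.87, 4.22 and 4.55 at the low dose and 3.86, 4.19 and 4.54 in controls. After exposure its levels were 4.80, 5.20 and 6.16 at the high dose, 4.43, 4.68 and 5.06 at the low dose and 4.60, 4.91 and 5.06 in controls. All groups were dimmer after recovery, and the high dose, highest after exposure, then had the lowest median (change -0.80 ± 0.13, 0.000397). The recovery medians of Slc5a3 lay near 4.14, the median deposited value, where log2 differences may be compressed.

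**Figure D5:**
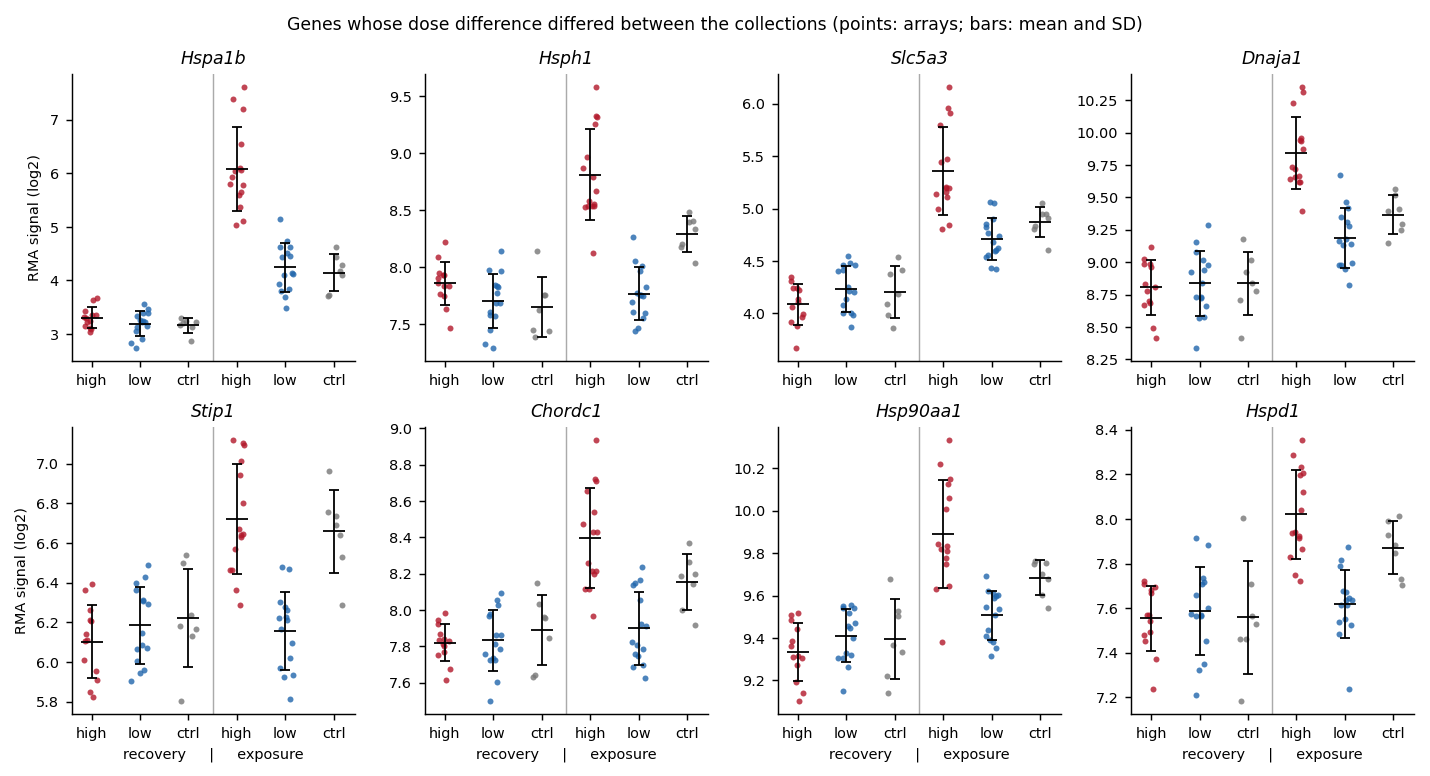
Log2 RMA signal (vertical axis) of the 8 genes whose dose difference differed between the collections, on each array of high-dose, low-dose and control mice after recovery (left of the line) and after exposure (right of it), with mean and SD. After recovery the groups overlap in each panel, and after exposure the high-dose mean is the highest of the 3.

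None of the 15 other heat shock genes passed the test between collections (smallest adjusted p = 0.313, limma; 8 had an unadjusted p under 0.05). Of these 15, 6 had a positive and 9 a negative dose difference after recovery (median -0.02), and 12 had been higher after exposure (median 0.24). Dnajb1, a co-chaperone, had a dose difference of -0.03 ± 0.10 after recovery and 0.46 after exposure (adjusted p of the change 0.313). After recovery the smallest p-values of the list were those of Hspb1, a small heat shock protein (0.25 ± 0.08, adjusted p = 0.232, limma), and Hspa4l (0.23 ± 0.10, 0.303). For Hspb1 all 13 high-dose arrays lay above the low-dose median. The sign of the median of all 22 genes changed with scaling: it was 0.01 after quantile normalization and after centring and 0.02 after cyclic loess, against -0.02 as reported.

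Against the controls of the recovery collection, 54 genes (0.429%) passed the test at the high dose, 51 higher and 3 lower, and 0 (0%) passed at the low dose. The tests used 13 and 15 arrays against the same 7 controls. Set directly against the low dose, the 51 genes differed by 0.06 to 0.38 (median 0.18) and the 3 by -0.22 to -0.11, and 0 of the 54 passed that test. So a call against control at the high dose alone is not a difference shown between the doses. The median of the 51 was 0.43 for the high dose minus control and 0.24 for the low dose minus control, values that share their controls. The 54 genes were picked on high-dose arrays against control, which by itself enlarges the high-dose values, including those set against the low dose. These medians therefore give no measure of a dose gradient.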

How the data were processed

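The deposited table holds log2 signals, 1 array per blood sample, which the authors computed with RMA (robust multi-array averaging), as the submitters' processing notes name it. The RMA software is not given in the sources used here, and neither are scan dates. Deposited values ran from 0.410 to 14.1. A platform annotation table gave exactly 1 symbol to 34945 of 45101 probe sets and several to 932; it lacks 9160, which go unnamed, and 64 are array controls. By gene identifier 34741 matched current genes, changing 0 symbols. A probe set was kept above 4.14, the median of all values, in at least 7 arrays (21044 probe sets), and the one of highest mean stood for its gene.

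Groups came from the sample titles. Means of the 6 groups were fitted with limma 3.58.1 in R 4.3.3, with 66 residual degrees of freedom and moderated by empirical Bayes. Benjamini-Hochberg adjustment ran within a comparison, at a threshold of 0.05, after a check on simulated data. The adjusted p rests on the spread among these samples only, and the number of arrays limits the precision. Array measures were compared by 100000 permutations (scipy 1.17.1). Alternatives changed the filter, scaling, probe set, weights, prior, covariates and arrays.

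The comparison, the 29 lists and the tests were chosen with earlier results of these data known. Named genes were the 5 of smallest p in each direction, those past the threshold between collections, up to 4 of smallest p per list, and 13 fixed genes (Alad, Alas2, Fech, Nt5c3, Tfrc, Mt1, Mt2, Hspa1b, Dnajb1, Hsph1, Fos, Dusp1, Slc12a2). Cdca5, Tat, Abcf1, Prkcb, Ppp3ca, S100a4, plasma cell genes and list exceptions (Slc2a1, Mmrn1, Btk, Mcm5, Kif23, Pcna, Mcm2, Cdc20) were named after their values were seen.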

Additional observations from a re-analysis of the deposited data

Results flagged for a closer look

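In 7 of the 81 named genes, the lowest control array of the recovery collection lay far below the other 6 by Dixon's test, which chance alone gives in about 1 in 20 groups. That lowest level was 4.98 for Ptch1, 2.87 for Hspa1b, 13.7 for Alas2, 13.5 for Fech, 8.87 for Xbp1, 7.38 for Ifit1 and 8.05 for Birc3. The 13 high-dose and 15 low-dose arrays were too many for that test, and controls do not enter the difference between the doses.

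The dose difference after recovery was below that after exposure, by the interaction test, for Hspa1b (-1.73), Hsph1 (-0.89), Slc5a3 (-0.80), Dnaja1 (-0.69), Stip1 (-0.64), Chordc1 (-0.51), Hsp90aa1 (-0.46) and Hspd1 (-0.44). The control medians of Hspa1b were 3.21 after recovery and 4.17 after exposure, so the collections also differed in mice that drank no lead, and the part of the collection in these values was not tested.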

How the results depend on the processing

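The count of 0 genes between the doses after recovery became 95 with array weights and 1 in a fit to the 28 arrays alone, and ranged from 0 to 5 when single arrays were left out (1183 to 2222 genes of unadjusted p under 0.05). It was 0 in the remaining settings, among them both filters, 3 scalings, every probe set tested by itself, 4 sets of covariates, the robust prior and the omission of the wide arrays. The 8 genes between collections became 15 with array weights and 29 with cell marker covariates, and 7 to 9 with single arrays left out, the range elsewhere being 7 to 12. The cause was not tested. With the replicate number as a block, 0 genes passed between the doses (1527 unadjusted) and 8 between collections. The numbers do not pair the mice of both doses: same-numbered arrays had correlations of -0.66 to 0.39 (median -0.01) over their deviations, 4 of 13 above 0.1, and 1 of 13 best with its own number. Whether a number marks the same mouse at each collection is not known. Same-numbered high-dose arrays of the collections had a median correlation of -0.00096, with 4 of 13 above 0.1 and 0 best with their own number. For the low dose the median was 0.073, with 7 of 15 above 0.1 and 3 best with their own number. The replicate block therefore cannot show whether the 8 genes hold when mice are paired. A random block of dose and number, chosen after seeing the data, gave 0 genes between the doses.

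Signs turned in 14 of 81 named genes, of which 10 had a reported difference of at most 0.106 in size; the others were Nt5c3 (0.36), Dnajb6 (0.25), Hspa4l (0.23) and Slc25a28 (-0.15). With cell marker covariates the difference was -0.052 for Hspa1b, -0.0065 for Alas2, -0.0090 for Fech, -0.034 for Nt5c3, -0.17 for Fos, 0.034 for Slc25a28, -0.0050 for Hspa4l and -0.064 for Dnajb6. After cyclic loess it was 0.0107 for Dnaja1, 0.0325 for Chordc1, 0.0108 for Hspd1 and 0.0153 for Dnajb1, and after quantile normalization 0.0189 for Chordc1 and 0.0066 for Dnajb1. Centring gave 0.0155 for Chordc1, and the hybridisation covariate 0.0175 for Dnajb1. Without the wide arrays it was 0.0111 for Chordc1, 0.00029 for Hspd1 and -0.0703 for Fos. For Fos it was also -0.0712 with array weights, -0.0353 with the replicate block and -0.0075 with 3-prime to 5-prime covariates, which gave -0.0159 for Slc12a2. With single arrays left out, Fos ranged from -0.0621 to 0.0993, Chordc1 from -0.0377 to 0.0048, Dusp1 from -0.138 to 0.00020 and Slc12a2 from -0.0193 to 0.0518. Probe sets near 4.14 carry little signal above the array median, and those near 14.1 may be compressed, which limits Odf3, Ncapg, Hspa1b, Slc5a3, Alas2 and Fech.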

Other observations

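The spread between arrays was larger at the high dose than at the low dose in 4233 of 12588 genes after recovery. The poly-A spike-in mean was 7.96 to 9.13 on the high-dose recovery arrays and reached 13.2 on 1 low-dose array. Of 12588 genes 8347 had a smaller absolute dose difference after recovery than after exposure.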
